A study of Mus musculus with 37 samples.

Results

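The genes described here are the Hox genes of the mouse. They were chosen as gene symbols of the count table made of Hox, a cluster letter from a to d and a paralogue number, and 38 of 25239 gene rows are described. Counts came from bulk RNA sequencing of 37 whole hearts dissected at E10.5. The hearts fell into 4 genotypes, namely wild-type (Nipbl +/+; Isl1 +/+, n = 10), Isl1_het (Isl1 +/-, n = 9), Nipbl_het (Nipbl +/-, n = 9) and double_het (Nipbl +/-; Isl1 +/-, n = 9). The fathers carried Stra8-iCre, a Cre active in the male germ line, and 1 Nipbl Flox allele, so that sperm passed on either the Flox allele, which the submitters treat as wild-type, or the null allele FIN. The mothers carried a Cre inserted in 1 Isl1 allele. Every Isl1 +/- heart therefore also carried that Cre, and a Nipbl +/+ heart can carry the Flox allele of its father. An Isl1_het heart can hold both. Whether its Cre changed the Flox allele in some cells was not tested, and every comparison with Isl1_het hearts carries that limit.

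Hox genes encode homeodomain transcription factors that give cells their position along the body axis. They lie in 4 clusters, and the order of the genes on the chromosome follows the order in which they are switched on, from low to high paralogue numbers and from anterior to posterior. In the developing heart, anterior members such as Hoxa3 and Hoxb1 are known from progenitors of the posterior second heart field, where they respond to retinoic acid. Nipbl loads the cohesin ring onto chromatin, and Isl1 is a LIM-homeodomain factor of second heart field progenitors. The comparisons ask how the Hox genes differ when 1 copy of either gene, or of both, is lost.

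Promoter sequence is shown for 2 anterior members, Hoxa2 and Hoxb1, because they are the tested members whose windows hold the composite of a PBX and a HOX protein. Windows were matched for 22 members. Each window is the 250 bases before the RefSeq start (GRCm38.p6), read on the gene's own strand, at chr6:52164832-52165081 (minus strand) for Hoxa2 and chr11:96365508-96365757 (plus strand) for Hoxb1. Capitals mark matches on either strand to TGACAG, the core recognised by MEIS and PKNOX proteins, or to TGATNNAT, the composite of a PBX and a HOX protein.
Hoxa2: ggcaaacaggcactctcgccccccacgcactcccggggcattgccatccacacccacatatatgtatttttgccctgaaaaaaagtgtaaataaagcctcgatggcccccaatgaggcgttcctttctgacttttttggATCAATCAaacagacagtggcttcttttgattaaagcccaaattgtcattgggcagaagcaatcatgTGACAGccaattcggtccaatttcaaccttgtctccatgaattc
Hoxb1: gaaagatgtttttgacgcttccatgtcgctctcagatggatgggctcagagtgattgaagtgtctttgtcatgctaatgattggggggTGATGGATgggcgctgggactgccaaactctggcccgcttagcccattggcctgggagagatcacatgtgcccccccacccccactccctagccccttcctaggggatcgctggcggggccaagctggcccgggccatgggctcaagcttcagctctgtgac
In Hoxa2 one match to TGACAG began 44 bases before the start and one to TGATNNAT began 111 bases before it, and in Hoxb1 the match to TGATNNAT began 162 bases before it. Both strings are common. Of 32851 promoter windows of this length, 15.9% held TGACAG and 7.68% held TGATNNAT, and of 24 windows of 22 Hox genes, 2 held the first and 4 the second. The Hoxa3 window held TGACAG, but all of its 250 bases lie in an exon of Hoxa3 in GENCODE M21, the annotation used here for lengths and overlaps, so it is not shown. The Hoxb1 window shares 6 bases with an exon of its gene there. The element of retinoic acid receptors, AGGTCA, was in 6 Hox windows and in 14.0% of all windows, and its direct repeats with 5 or with 2 bases of any kind between them were each in 0.00913% of all windows and in 0 Hox windows. These strings were picked out of 14 after their matches had been seen. A match is a description of letters and not of binding, and a window without one says nothing of more distant elements.

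The libraries held 23356831 to 50974736 counts, with a median of 36239721. Cardiomyocyte markers were abundant in every library, with a summed level of 23100 to 37000 CPM (counts per 1000000 after TMM scaling) over the 10 genes of the list. Nipbl was at 60.0 ± 10.1 CPM (SD, n = 10) in wild-type, 61.5 ± 5.88 (n = 9) in Isl1_het, 39.3 ± 13.8 (n = 9) in Nipbl_het and 38.1 ± 7.41 (n = 9) in double_het hearts. The library labelled Nipbl_het replicate 2 went against its label, with 72.4 CPM of Nipbl. Isl1 was at 7.37 ± 2.24 CPM (n = 10) in wild-type, 6.28 ± 1.76 (n = 9) in Isl1_het, 13.0 ± 2.82 (n = 9) in Nipbl_het and 9.50 ± 3.51 (n = 9) in double_het hearts. The double_het mean lay above that of wild-type, and 1 of 9 libraries of either Isl1 +/- genotype lay below every wild-type library, so the level of Isl1 does not check the Isl1 labels. A number in the description labels divides the libraries into 5 sets, and every comparison below is at equal set number. Set 1 held no heart with a Nipbl mutation, and set 7 held 1 library, double_het replicate 2, which therefore adds nothing to the double_het comparisons. Nothing in the labels says how the embryos of one genotype relate to each other, so p-values measure the spread between these libraries.

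Most Hox genes were at or near 0 counts in these hearts. Of the 38 members, 10 passed the filter on low counts and were tested, 2 were low and not tested, and 26 had a median count of 2 or less over the 37 libraries. The tested members were Hoxa2 to Hoxa5, Hoxb1 to Hoxb4, Hoxc4 and Hoxc5, which is 4 of 10 members in cluster a, 4 of 10 in b, 2 of 9 in c and 0 of 9 in d. The anterior paralogues (1 to 4) held 85.5% of the counts of these members, the central ones (5 to 8) 12.1% and the posterior ones (9 to 13) 2.33%. By cluster, the shares were 64.6% in b, 27.6% in a, 5.46% in c and 2.36% in d.

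**Figure D1:**
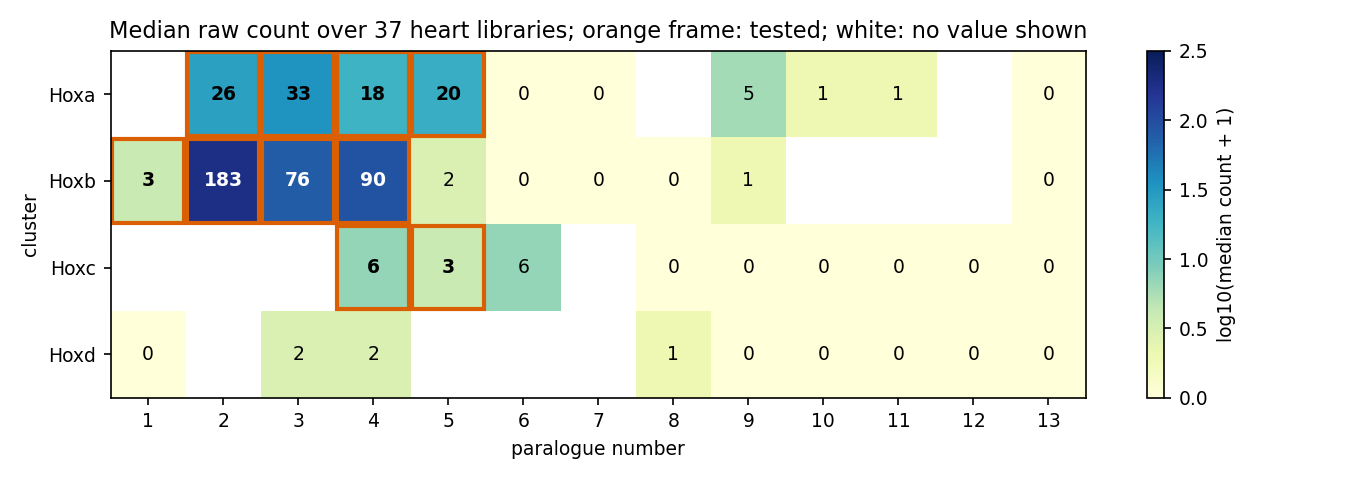
Median raw count of each of 38 Hox genes over 37 heart libraries, arranged by cluster (rows) and paralogue number (columns), with colour on a log10 scale. Orange frames mark the 10 tested genes, which all have paralogue numbers of 5 or less, and Hoxb2 has the highest median count, 183.

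Compared per length of exon, Hoxb2 had the highest mean level over all libraries, at 1.64 CPM per kb, followed by Hoxb4 at 1.19. Hoxa5 (0.782), Hoxa4 (0.703), Hoxb3 (0.565) and Hoxa2 (0.522 CPM per kb) came next. Hoxa3 stood at 0.184, Hoxc4 at 0.165, Hoxc5 at 0.101 and Hoxb1 at 0.0875 CPM per kb. In wild-type hearts alone the order was another, with Hoxb3 (0.514) above Hoxa4 (0.366), and Hoxc5 (0.111) above Hoxc4 (0.095) and Hoxa3 (0.0872 CPM per kb), and each step was smaller than the wild-type SD of the upper of the pair. Over libraries the SD was 0.778 for Hoxb2, 0.755 for Hoxb4, 0.951 for Hoxa5 and 0.136 CPM per kb for Hoxa3. Each step between neighbours in the order over all libraries was smaller than the SD of the upper of the pair, and smaller than that of the lower one too except from Hoxa2 to Hoxa3.

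Of the low members that did not pass the filter, Hoxa9 had a median count of 5 (0 to 15 per library) and Hoxc6 one of 6 (0 to 16). Both medians lay above those of Hoxb1 and Hoxc5 (3 each), which were tested. Hoxb13, Hoxc11 and Hoxd12 had a count of 0 in each of the 37 libraries, where 3 counts over the pooled libraries would be 0.00228 per 1000000 unscaled counts, a limit that covers counting error only. Among the 26 members near 0, single libraries stood out. Hoxd1 reached a count of 40 in the library labelled Nipbl_het replicate 2, 20 in wild-type replicate 6 and 11 in Isl1_het replicate 8, with a median of 0. Hoxb6 had a count of 13 in Nipbl_het replicate 5 and at most 2 elsewhere, and the same library held the highest counts of the adjacent Hoxb7 (9) and Hoxb8 (11). Hoxb5 reached 22 in Nipbl_het replicate 9 and 20 in wild-type replicate 6. Posterior members stayed low everywhere, with 3 to 42 counts per library over all 16, and the highest sum, in double_het replicate 1, came with the highest counts of Hoxa10 (13) and Hoxa11 (15).

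In Nipbl_het hearts, Hoxa3 was higher than in wild-type. Hoxa3 acts in the pharyngeal arches and their derivatives. Hoxa3 (chr6:52169062-52213336, minus strand) ran from 0.0976 to 1.15 CPM in wild-type (median 0.360) and from 0.858 to 4.55 CPM in Nipbl_het hearts (median 1.53). In 7 of 9 Nipbl_het libraries it lay above every wild-type library. The difference in Hoxa3 was 3.55-fold (log2 1.83 ± 0.34 SE, adjusted p = 0.00249, edgeR quasi-likelihood test, Benjamini-Hochberg over 15046 genes), with means of 0.524 ± 0.371 CPM (SD, n = 10) and 1.89 ± 1.13 CPM (n = 9).

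**Figure D2:**
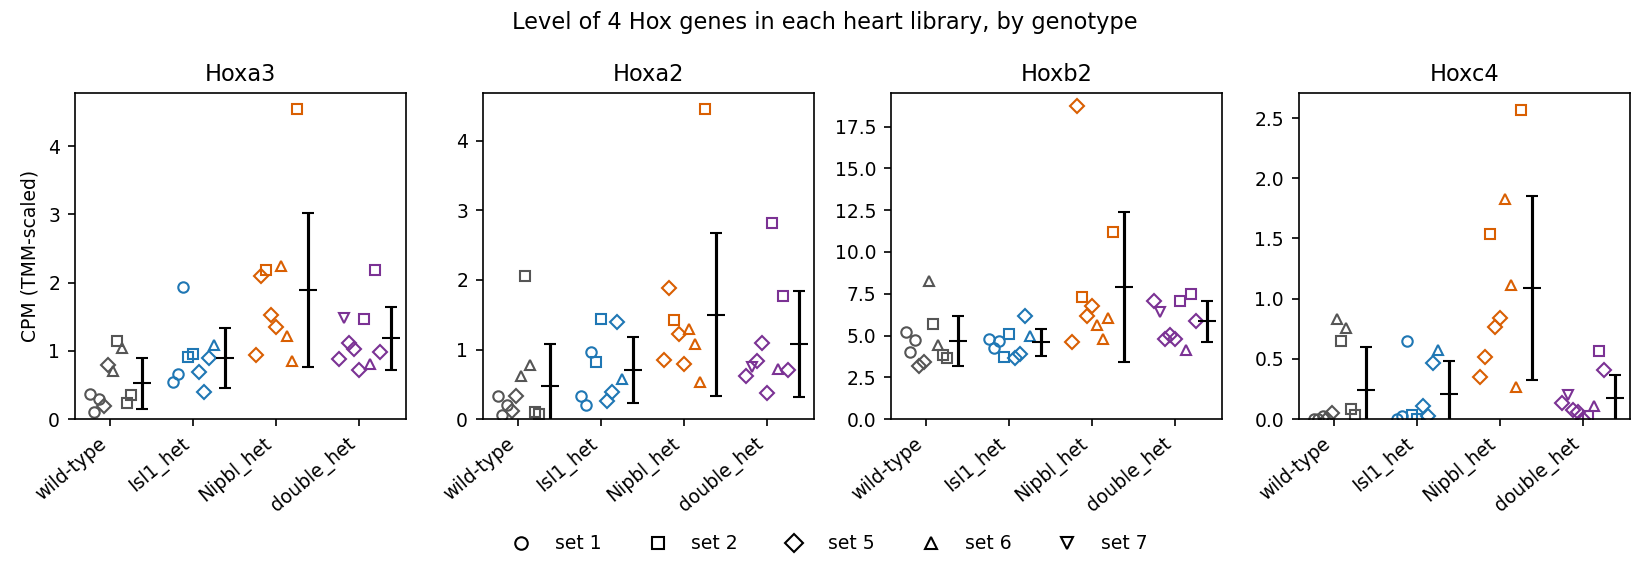
Level in CPM of Hoxa3, Hoxa2, Hoxb2 and Hoxc4 in each heart library, by genotype, with a linear axis from 0. Symbols give the set number and the bars the mean ± SD, cut at 0. For Hoxa3, 7 of the 9 Nipbl_het points lie above every wild-type point, and the highest Hoxb2 point, at 18.7 CPM, is the library labelled Nipbl_het replicate 2.

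This was 1 of 10 tested members, beside 1.71% of all genes tested that passed in this comparison (258 of 15046). In a fit made without Nipbl_het replicate 2, the log2 difference of Hoxa3 was 1.76 (adjusted p = 0.00256, edgeR). Within sets, as differences of mean log2 CPM, Hoxa3 was higher by 2.60 in set 2, 1.67 in set 5 and 0.61 in set 6. The call did not hold without set 2 (log2 1.46, adjusted p = 0.137, edgeR) or without set 5 (log2 1.90, adjusted p = 0.0557). Exons of Hoxa3 share 27.1% of their bases with other transcripts of the cluster, and without a stated strand setting such reads cannot be told apart.

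The other 9 tested members did not pass in Nipbl_het hearts by edgeR, while DESeq2 called 3 of the 10, Hoxa3, Hoxa2 (adjusted p = 0.0157) and Hoxb2 (adjusted p = 0.0284), beside 3.05% of all genes by that tool. Levels of these 9 overlapped with wild-type. Hoxa2, which patterns the second pharyngeal arch, ran from 0.0650 to 2.06 CPM in wild-type and from 0.528 to 4.45 CPM in Nipbl_het hearts, with a log2 difference of 1.65 ± 0.45 (SE) and an adjusted p of 0.0509 by edgeR. Hoxb2, the member with the highest level, ran from 3.17 to 8.24 CPM in wild-type and from 4.59 to 18.7 CPM in Nipbl_het hearts, and its log2 difference of 0.77 ± 0.23 had an adjusted p of 0.0709. Without the library labelled Nipbl_het replicate 2 the Hoxb2 difference was 0.52 (adjusted p = 0.0970, edgeR). Hoxb3 was at 2.18 ± 1.99 CPM (n = 10) in wild-type and 3.21 ± 1.80 CPM (n = 9) in Nipbl_het hearts (log2 0.59 ± 0.32 SE, adjusted p = 0.382, edgeR). Hoxb4 was at 2.59 ± 1.76 and 4.25 ± 2.47 CPM (log2 0.71 ± 0.30 SE, adjusted p = 0.242, edgeR), and both members, with Hoxb2, lie side by side in cluster b.

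Hoxa4, Hoxa5, Hoxb1, Hoxc4 and Hoxc5 ranged widely from heart to heart within a genotype, in wild-type from 0 upwards. Hoxa4 ran from 0 to 2.26 CPM in wild-type (median 0.190) and from 0.528 to 6.84 CPM in Nipbl_het hearts (median 2.38), where 5 of 9 libraries lay above every wild-type library. Its log2 difference was 2.24 ± 0.74 (SE), with an adjusted p of 0.119 by edgeR. Hoxa5, which acts in the lung and the cervical skeleton, ran from 0 to 5.17 CPM in wild-type and from 0.601 to 6.68 CPM in Nipbl_het hearts (log2 1.45 ± 0.67 SE, adjusted p = 0.294, edgeR). The wild-type range of Hoxa5 rests on 2 libraries, replicates 7 and 8, at 5.17 and 5.07 CPM, while the other wild-type libraries lay at or below 0.488 CPM. Without replicate 7 the difference was 2.17 (adjusted p = 0.125, edgeR), and over all single libraries left out it ran from 1.25 to 2.17. Hoxc4 ran from 0 to 0.834 CPM in wild-type and from 0.264 to 2.57 CPM in Nipbl_het hearts (log2 2.31 ± 0.70 SE, adjusted p = 0.0838, edgeR). Hoxc5, its neighbour, ran from 0 to 1.51 CPM and from 0.0273 to 1.22 CPM, so that no Nipbl_het library lay above the wild-type range (log2 1.03 ± 0.80 SE, adjusted p = 0.567, edgeR). Hoxb1, which acts in the hindbrain and in second heart field progenitors, had a log2 difference of 1.91 ± 0.78 (SE) and an adjusted p of 0.230 by edgeR.

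Over the 10 tested members, the log2 differences of Nipbl_het from wild-type ran from 0.59 in Hoxb3 to 2.31 in Hoxc4, with a median of 1.55 beside 0.01 over all genes tested. Within sets, as differences of mean log2 CPM, all 10 were above 0 in set 2 (2 Nipbl_het and 3 wild-type libraries) and in set 5 (4 and 2). In set 6 (3 and 2 libraries) 4 were below 0, Hoxb2 (-0.14), Hoxb3 (-0.77), Hoxb4 (-0.17) and Hoxc5 (-0.79). With set 2 left out, the fitted log2 difference of Hoxb3 was 0.04 (adjusted p = 0.966, edgeR), while with set 6 left out Hoxb3 passed (adjusted p = 0.0416, edgeR). At an unadjusted p under 0.05 there were 8, beside 15.1% of all genes. This median and this count are descriptions only. Of the libraries above the filter's 0.276 CPM, 6 of 11 for Hoxb1, 8 of 16 for Hoxc4 and 6 of 13 for Hoxc5 were Nipbl_het. That left 5, 8 and 7 libraries of the other genotypes, below the 9 the filter asks for, so these 3 members were tested only through the Nipbl_het libraries, and every value of theirs that uses those libraries, the interaction and both averaged effects included, carries that choice. In whole hearts, more cells of a kind and more RNA per cell cannot be told apart.

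**Figure D3:**
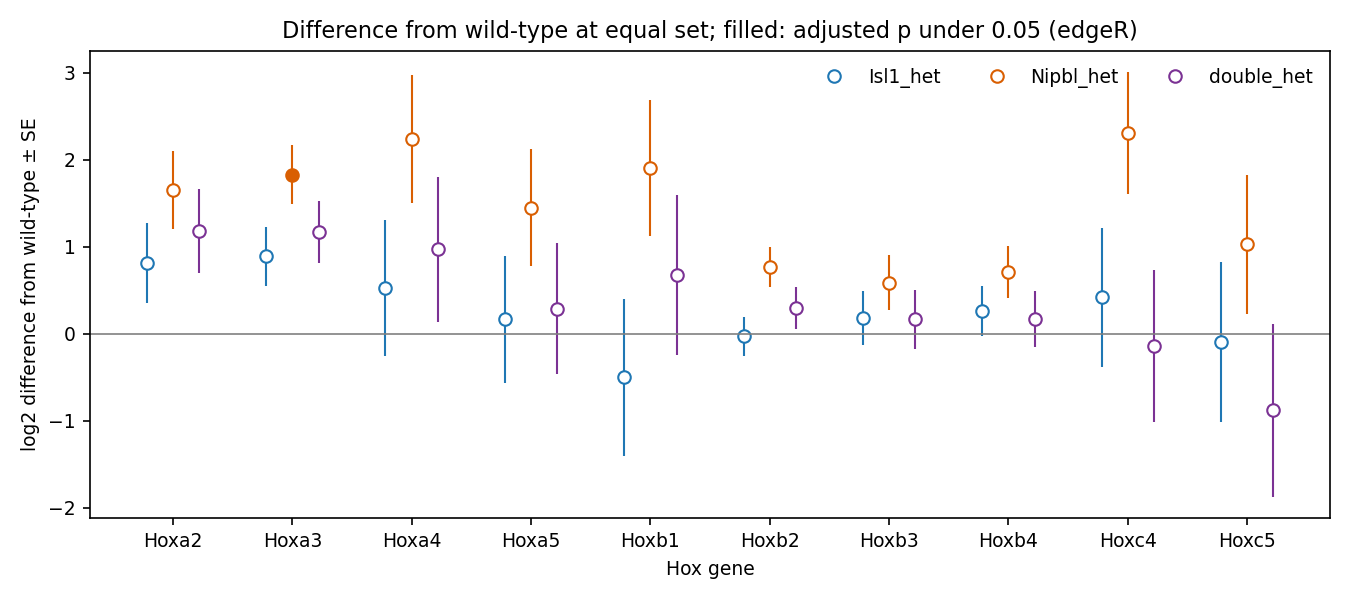
Log2 difference from wild-type (± SE) of the 10 tested Hox genes in Isl1_het, Nipbl_het and double_het hearts, fitted at equal set number. Filled points have an adjusted p under 0.05, which holds for Hoxa3 in Nipbl_het hearts. The 3 comparisons share the wild-type libraries.

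In double_het hearts 0 of 10 tested members passed by edgeR, beside 2.6% of all genes tested. DESeq2 called 1, Hoxa3, beside 3.46% of all genes by that tool, and 2 members, Hoxa2 and Hoxa3, had an unadjusted edgeR p under 0.05, beside 11.6% of all genes. Hoxa3 was at 1.19 ± 0.459 CPM (SD, n = 9), above every wild-type library in 3 of 9 (log2 1.17 ± 0.36 SE, adjusted p = 0.0849, edgeR). Without the library labelled Nipbl_het replicate 2, which is in the same fit, the value of Hoxa3 was 1.19 ± 0.36 (SE, adjusted p = 0.0457, edgeR). Hoxa2 had the highest log2 difference, 1.18 ± 0.48 (SE, adjusted p = 0.268, edgeR), and Hoxc5 the lowest, -0.88 ± 0.99 (adjusted p = 0.812). The Hoxc5 value was -2.02 without double_het replicate 8, -0.11 without wild-type replicate 7 and -0.07 with set 6 left out. Hoxc4 was at 0.175 ± 0.190 CPM (n = 9), beside 0.244 ± 0.351 CPM (n = 10) in wild-type.

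In Isl1_het hearts 0 of 10 members passed by edgeR and 0 by DESeq2, beside 0.0% and 0.0731% of all genes. At an unadjusted p under 0.05 there was 1, Hoxa3, beside 5.89% of all genes. Hoxa3 was at 0.897 ± 0.444 CPM (SD, n = 9) and had the highest log2 difference, 0.89 ± 0.34 (SE, adjusted p = 0.769, edgeR), while Hoxb1 had the lowest, -0.50 ± 0.90 (adjusted p = 0.938). Hoxb2 was at 4.58 ± 0.817 CPM (n = 9), beside 4.65 ± 1.49 CPM (n = 10) in wild-type.

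Between the 2 genotypes with 1 copy of Nipbl, 0 of 10 members passed by edgeR and 0 by DESeq2, beside 0.0% of all genes by either tool. At an unadjusted p under 0.05 there were 3 (Hoxb2, Hoxc4 and Hoxc5), beside 9.01% of all genes. Hoxb1, Hoxc4 and Hoxc5 were tested only through the Nipbl_het libraries, so their values below 0 here carry that choice. All 10 differences of double_het from Nipbl_het were below 0, and the Nipbl_het libraries that set them are those of the comparison with wild-type. Hoxc4 differed most, at 0.175 ± 0.190 CPM in double_het and 1.09 ± 0.765 CPM in Nipbl_het hearts (n = 9 each). For Hoxc4, 7 of 9 double_het libraries lay below every Nipbl_het library (log2 -2.45 ± 0.76 SE, adjusted p = 0.413, edgeR). The value of Hoxa3 was -0.65 ± 0.33 (SE, adjusted p = 0.564, edgeR). In the same comparison 9 of 9 erythroid genes lay above 0 (median log2 1.52, 7 with an unadjusted p under 0.05). So did 10 of 10 epicardium genes (median 0.3, 7 with such a p). Of the second heart field genes 2 of 10 lay above 0 (median -0.33, 4 with such a p), and the liver list had a median of -0.99 (0 of 5 with such a p). None of these genes passed after adjustment by edgeR, and their part in the Hox values was not tested.

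Loss of Nipbl on the Isl1 +/- background, the comparison of double_het with Isl1_het, shares no library with that of Nipbl_het and wild-type. Here 0 of 10 members passed by edgeR and 0 by DESeq2, beside 0.957% and 1.56% of all genes, and 0 had an unadjusted p under 0.05, beside 7.49% of all genes. Hoxa3 was above the Isl1_het mean in 6 of 9 double_het libraries, with a log2 difference of 0.28 ± 0.37 (SE, adjusted p = 1.0, edgeR). The interaction, which tests the difference between both effects of Nipbl loss, called 0 of 10 members by edgeR and by DESeq2, beside 0.0% of all genes by either tool. At an unadjusted p under 0.05 there were 3 (Hoxa2, Hoxa3 and Hoxc4, the last tested only through the Nipbl_het libraries), beside 2.73% of all genes. All 10 interaction values were below 0 (that of Hoxb1 changed sign in 2 alternative fits), from -2.87 ± 1.08 (SE) in Hoxc4 to -0.45 ± 0.31 in Hoxb2, and the value of Hoxa3 was -1.54 ± 0.47 (unadjusted p = 0.00259, adjusted p = 0.999, edgeR).

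Averaged over both Isl1 genotypes, Hoxa3 was higher with 1 copy of Nipbl, 1 of 10 members beside 4.02% of all genes. Its averaged log2 difference was 1.05 ± 0.27 (SE, adjusted p = 0.0167, edgeR). This average weights equally the log2 1.83 of Nipbl_het against wild-type and the 0.28 of double_het against Isl1_het. It reuses the first of these and is not a separate result. Hoxb2 (0.55 ± 0.17 SE, adjusted p = 0.0701) and Hoxa2 (1.01 ± 0.35 SE, adjusted p = 0.105) came next by edgeR. DESeq2 called 2, Hoxa3 and Hoxb2, beside 5.4% of all genes, and 5 members had an unadjusted edgeR p under 0.05, beside 14.9% of all genes. With set 2 or set 5 left out, 0 members passed, and the Hoxa3 value was 0.71 ± 0.32 (SE, adjusted p = 0.400, edgeR) and 1.03 ± 0.41 (adjusted p = 0.217). Averaged over both Nipbl genotypes, loss of Isl1 changed 0 of 10 members by edgeR and by DESeq2, beside 0.173% and 0.764% of all genes, and 0 had an unadjusted p under 0.05, beside 12.2% of all genes. The lowest of these values was that of Hoxc4, -1.01 ± 0.57 (SE, adjusted p = 0.471, edgeR), a member tested only through the Nipbl_het libraries that enter this average, and the highest that of Hoxa2, 0.17 ± 0.32 (adjusted p = 0.844).

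At equal genotype, Hoxa2 (adjusted p = 0.0293) and Hoxb4 (adjusted p = 0.0233) differed between sets by edgeR, 2 of 10 members beside 38.2% of all genes. Hoxa2 had a median of 0.271 CPM in set 1 (n = 6) and 1.44 CPM in set 2 (n = 9), and Hoxb4 one of 1.94 CPM in set 5 (n = 14) and 3.96 CPM in set 6 (n = 7). These medians also carry the genotypes of each set. Hoxa3 did not pass for set number (adjusted p = 0.217, edgeR).

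The hearts with high Hox levels were much the same for many members. Nipbl_het replicate 9 had the highest level of its genotype for 9 of 10 tested members, double_het replicate 8 for 9, wild-type replicate 7 for 7 and Isl1_het replicate 3 for 6. The summed level of the anterior members was 49.7 CPM in Nipbl_het replicate 9, beside a median of 13.1 CPM over all libraries and a lowest value of 6.54 CPM. Wild-type replicate 6 had a pattern of its own, with the highest wild-type levels of Hoxb3 (7.43 CPM) and Hoxb2 (8.24 CPM) and 0.365 CPM of Hoxa5. The library labelled Nipbl_het replicate 2 combined the highest Hoxb2 of the series with 0.601 CPM of Hoxa5, the lowest Hoxa5 level of its genotype.

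**Figure D4:**
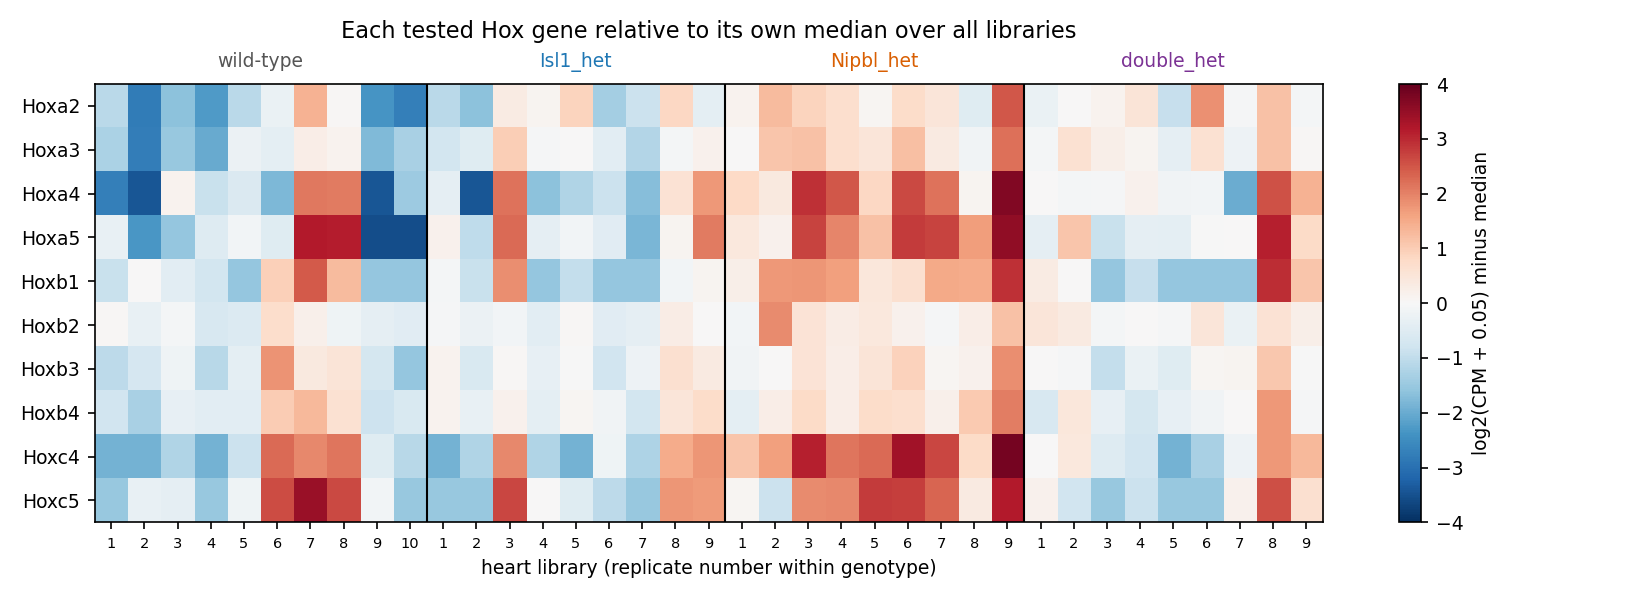
Level of the 10 tested Hox genes (rows) in each of 37 heart libraries (columns, grouped by genotype), as log2(CPM + 0.05) minus the gene's median over all libraries, with the colours ending at 4 in either direction. Nipbl_het replicate 9, double_het replicate 8 and wild-type replicate 7 are high in most rows, and Hoxa4, Hoxa5, Hoxc4 and Hoxc5 vary most from heart to heart.

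With genotype and set fitted, the levels of the 10 members were positively correlated from heart to heart. Pearson's r between 2 members was above 0 in 45 of 45 pairs over 37 libraries, with a median of 0.66, and in 43 of 45 pairs also within each of sets 2, 5 and 6. In 42 of 45 pairs both r and Spearman's rho had an adjusted p under 0.05 (permutation test with 100000 resamples, two-sided, Benjamini-Hochberg over 45 pairs), and r was at least 0.43 in each of these. Over all 113183535 pairs of the 15046 genes tested, the median r was 0.0, with 49.9% above 0 and 16.0% at 0.43 or more. Libraries also differ in the RNA of other tissues, and its part in these correlations was not tested. Hoxc4 and Hoxc5 had the highest r, 0.89 (rho 0.88, adjusted p = 2.14e-05 for r by permutation), and r was 0.86 without the 2 libraries farthest from the median. Hoxa4 and Hoxa5 followed at 0.85 (rho 0.86, and 0.81 without those 2 libraries). The lowest value joined Hoxa4 and Hoxb2, at 0.19 (rho 0.35, adjusted p = 0.263 for r by permutation). Hoxb2 had its highest r with Hoxb3, at 0.61 (rho 0.68), and was at 0.21 with Hoxa5 and 0.27 with Hoxc5.

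**Figure D5:**
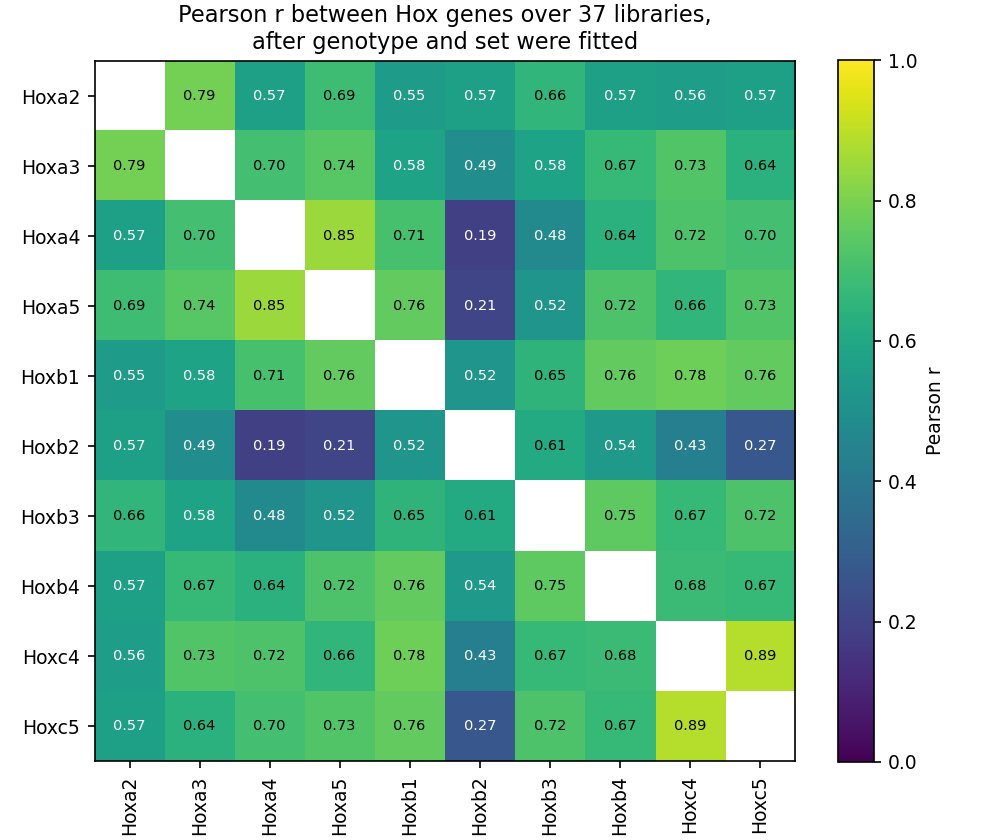
Pearson's r between each pair of the 10 tested Hox genes over 37 libraries, after genotype and set number were fitted, with a colour scale from 0 to 1. Values run from 0.19 for Hoxa4 with Hoxb2 to 0.89 for Hoxc4 with Hoxc5, and Hoxb2 has the lowest values, 0.19 to 0.27 with Hoxa4, Hoxa5 and Hoxc5.

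Some marker lists moved with Hoxa3 and Hoxa5, and their part in the Hox results was not tested. Of 20 relations of Hoxa3 and Hoxa5 with 10 marker lists, 4 had an adjusted p under 0.05 for both r and rho. Hoxa3 followed the mean log2 level of the second heart field list with r = 0.63 and rho = 0.67 (adjusted p = 0.0005 for r, permutation, n = 37 libraries), 0.60 without the 2 farthest libraries, and 0.65, 0.52 and 0.99 within sets 2, 5 and 6. Hoxa5 followed that list with r = 0.44 (rho 0.46, adjusted p = 0.0285 by permutation) and the limb and lateral plate list with r = 0.65 (rho 0.71, adjusted p = 0.0005 by permutation). Hoxa3 and the limb and lateral plate list had r = 0.52 (rho 0.57, adjusted p = 0.00627 by permutation), but -0.22 within set 5. In Nipbl_het hearts 2 of 10 second heart field genes were higher by edgeR (1.71% of all genes tested passed there), Tbx1 (log2 1.38, adjusted p = 0.0322) and Isl1 (0.79, adjusted p = 0.0252). The summed level of the list ran from 141 to 231 CPM, beside 135 to 188 CPM in wild-type, and was highest in the library labelled Nipbl_het replicate 2. Of the limb and lateral plate list 0 of 9 tested genes passed, with sums of 139 to 389 CPM in Nipbl_het and 310 to 354 CPM in wild-type hearts.

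Levels of blood and liver markers are given beside the Hoxa3 call, and their part in it was not tested. In Nipbl_het against wild-type hearts, 0 of 9 tested erythroid genes had a log2 difference above 0, with a median of -0.74, and the summed level ran from 517 to 23500 CPM (median 6790) beside 1880 to 107000 CPM (median 10600). All 5 tested liver genes were above 0, with a median log2 difference of 0.97. None of these erythroid and liver genes passed by edgeR, and an unadjusted p under 0.05 was found for 0 of the 9 and 3 of the 5, beside 15.1% of all genes tested. The liver list summed to 438 CPM in Nipbl_het replicate 9, the library with the highest Hox levels, beside 7.90 to 29.3 CPM in wild-type hearts, with 3 of its 10 genes, Alb among them, at a median count of 0. The erythroid list was highest in wild-type replicate 7, at 107000 CPM, and double_het replicate 8 held the highest sum of its genotype, 54200 CPM. Of the somite and skeletal muscle list, 6 of 10 genes, Pax3 and Myod1 among them, had a median count of 0, and its sum ran up to 18.5 CPM in wild-type and 28.1 CPM in Nipbl_het hearts. Of the neural crest list, Foxd3 and Tlx2 had a median count of 0, with sums of 61.4 to 106 CPM in wild-type and 87.0 to 124 CPM in Nipbl_het hearts. The 124 CPM were in the library labelled Nipbl_het replicate 2. The spinal cord and neuron list (Sox1, Olig2 and Mnx1 at a median count of 0) summed to 47.0 to 80.7 and 38.5 to 73.7 CPM. Of its 7 tested genes, Pax6 (log2 0.93) and Nefl (0.32) were higher and Sox3 (-0.97) lower in Nipbl_het hearts, with adjusted p of 0.0231, 0.0286 and 7.34e-05 by edgeR, and Sox3 was lower in double_het hearts too (-0.81, adjusted p = 0.000459). The foregut list (Shh, Nkx2-1 and Pax9 at 0) summed to 20.1 to 38.5 and 20.8 to 42.2 CPM. The epicardium list summed to 425 to 648 CPM in wild-type, 562 to 998 in Nipbl_het and 757 to 1220 in double_het hearts. The 998 CPM were also in the library labelled Nipbl_het replicate 2. By edgeR, 1 of 10 epicardium genes was higher in Nipbl_het and 7 of 10 in double_het hearts, beside 1.71% and 2.6% of all genes tested.

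The proteins that bind DNA with HOX factors summed to 484 to 671 CPM over all hearts, with the highest sum in the library labelled Nipbl_het replicate 2. Of 9 genes of PBX, MEIS and PKNOX proteins, 1 was higher in Nipbl_het hearts and 0 in double_het hearts by edgeR, beside 1.71% and 2.6% of all genes tested. It was Meis3, at 20.5 ± 2.67 CPM (SD, n = 10) in wild-type and 22.6 ± 4.20 CPM (n = 9) in Nipbl_het hearts (log2 0.28 ± 0.07 SE, adjusted p = 0.0238, edgeR). Of 17 tested genes of retinoic acid synthesis, breakdown and reception, 0 passed in either genotype, with a median log2 difference of 0.20 in Nipbl_het and 0.05 in double_het hearts. Of 13 tested regulators that act on Hox clusters, 0 passed in either genotype, and Cdx2 and Cdx4, which act on more posterior Hox genes, had a median count of 0. Of 14 tested genes that flank the clusters, 0 passed in either genotype, with median log2 differences of -0.01 and -0.03.

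Of 18 non-coding genes listed for the clusters and their edges, 3 were tested, and 1 of them passed in Nipbl_het hearts, beside 1.71% of all genes. Hoxaas2, an antisense RNA whose exons overlap those of Hoxa3, was higher in Nipbl_het hearts, at 0.775 ± 0.482 CPM (SD, n = 9) beside 0.181 ± 0.232 CPM (n = 10) in wild-type (log2 2.14 ± 0.58 SE, adjusted p = 0.0484, edgeR). In double_het hearts it was at 0.533 ± 0.409 CPM (log2 1.85 ± 0.64 SE, adjusted p = 0.145, edgeR). Hoxaas2 and Hoxa3 share 503 exon bases on opposite strands. Without a stated strand setting, reads of these bases cannot be told apart, so the 2 calls may not be separate. Hotairm1, an RNA of the anterior end of cluster a, was at 0.715 ± 0.390 CPM in wild-type and 1.16 ± 0.508 CPM in Nipbl_het hearts (log2 0.80 ± 0.29 SE, adjusted p = 0.155, edgeR). Hoxb3os, antisense to Hoxb2 and Hoxb3, varied little, between 2.80 and 5.65 CPM over all libraries (log2 0.25 ± 0.12 SE in Nipbl_het, adjusted p = 0.328, edgeR). Its exons cover 52.9% of those of Hoxb3, whose highest level was 7.70 CPM.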

How the data were processed

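Raw counts were deposited by the authors as 1 table with 37 libraries as columns. STAR, featureCounts and the build GRCm38 (mm10) are named in the submitters' processing notes, without version or role, and annotation and strand setting are not given in the sources used here. Of 25239 gene rows, 4273 were at 0 in every library, and 0 columns belonged to no sample. The filter on low counts was filterByExpr, run on the genotypes with 10 as its smallest count and 15 as its smallest total, and it left 15046 genes. After TMM scaling, edgeR 4.0.16 (quasi-likelihood, R 4.3.3) fitted genotype and set number, all 37 libraries in 1 fit, since the genotypes share an estimate of the spread. Tests were two-sided, with Benjamini-Hochberg adjustment over all genes tested and a threshold of 0.05. Exon lengths and overlaps came from GENCODE M21 (GRCm38), and promoters from RefSeq (GRCm38.p6). Levels per kb use the mean CPM over all libraries.

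Of the 39 genes the rule finds, 1 is not reported here, nor are single genes of the lists, and counts of members and list genes leave them out. Members, 15 gene lists, tests and alternatives were chosen with earlier results of these data known. The named members are those past the threshold in any genotype comparison and the 3 tested members of highest level per kb in each cluster (none was tested in d), and from each list at most 4 genes past the threshold; Hoxa2, Hoxb1 and the members near 0 named singly were chosen after their values were seen. So were the correlations (residuals of log2 CPM after genotype and set number), the choice of Hoxa3 and Hoxa5 for the marker relations, and the motifs: 14 strings were searched, 5 are described, and TGATNNAT replaced the narrower TGATNGAT after the matches of both were known. On simulated counts for Nipbl_het against wild-type (15046 genes, 200 changed), the procedure recovered 77% of changed genes with 3 false calls, and called 0 genes where none was changed. How far these figures hold for the tested Hox members, with median counts from 3 to 183, was not tested. Alternatives were no set term, the replicate number as a block, DESeq2 1.42.0, its size factors in edgeR and other count filters. Further alternatives were 2 surrogate variables (sva 3.50.0), and each set or library left out. Within a genotype no 2 libraries agreed within sampling noise (153 pairs, smallest chi-square per degree of freedom 7.49).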

Additional observations from a re-analysis of the deposited data

Results flagged for a closer look

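In 3 of 40 combinations of a tested member and a genotype, 1 library stood apart from the others on the log2 CPM scale, and chance flags about 1 in 20. Hoxa5 was at 4.94 CPM in double_het replicate 8, where the next highest double_het library was at 1.21 CPM. Hoxb4 was at 8.25 CPM in the same library, with the next at 3.38 CPM. Hoxb1 was at 0.482 CPM in Isl1_het replicate 3, with the next at 0.108 CPM. Double_het replicate 8 belongs to set 2 and held the highest erythroid sum of its genotype, 54200 CPM. The part of blood content in these values was not tested.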

How the results depend on the processing

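The number of Hox members called in Nipbl_het against wild-type was 1 in the fit reported. It was 3 with no set term and by DESeq2 (Hoxa2 and Hoxb2 added) and 4 with 2 surrogate variables. It was 0 with at least 10 counts in every library (a filter that leaves 3 members, Hoxa3 not among them) and 0 with set 2 or set 5 left out. With set 6 left out it was 5 (Hoxa2, Hoxb2, Hoxb3 and Hoxc4 added). The share of all genes called moved too, from 1.71% to 3.10% with no set term, 3.05% by DESeq2, 9.32% with surrogate variables, 1.51% with that filter, and 0.207%, 0.815% and 1.15% without set 2, 5 or 6. Leaving out each library in turn gave 1 to 3 (1.11% to 2.72% of all genes). It gave 3 without wild-type replicate 6, Nipbl_het replicate 1 or Nipbl_het replicate 8, and 2 without wild-type replicates 7 or 8, Isl1_het replicates 2 or 8 or Nipbl_het replicates 3, 5 or 7. In double_het against wild-type, 0 became 1, Hoxa3, with no set term, by DESeq2, with surrogate variables, with set 6 left out, and without wild-type replicates 5 or 8 or Nipbl_het replicate 2 (0 to 1 over single libraries). The shares of all genes there were 3.79%, 3.46%, 11.5% and 1.47% in the first 4 of these settings, beside 2.6%, and 1.62% to 5.57% over single libraries. For the averaged effect of Nipbl loss, 1 became 3 with no set term and with surrogate variables, 2 by DESeq2 and with set 6 left out, and 0 with the strict filter and with set 2 or set 5 left out. The shares of all genes were 6.95%, 14.2%, 5.40%, 2.65%, 3.83%, 1.01% and 1.81% in that order, beside 4.02%. Leaving out 1 library there gave 1 to 2 (2.89% to 6.93% of all genes), with 2 without wild-type replicates 6 or 7, Isl1_het replicate 8 or Nipbl_het replicates 1, 2 or 7. For set number, 2 became 4 with no filter (Hoxd3 and Hoxa7 added), 3 by DESeq2 and with surrogate variables (Hoxa5 added) and with set 6 left out (Hoxd3 added), and 1 in 4 settings. That 1 was Hoxb4 with the strict filter and with set 2 left out, and Hoxd3, in place of Hoxa2 and Hoxb4, with set 1 or set 5 left out. The share of all genes ran from 9.46% without set 2 to 48.6% with surrogate variables, beside 38.2%. Leaving out 1 library there gave 1 to 4 (29.4% to 55.7% of all genes), with 1 without wild-type replicate 7, Nipbl_het replicate 9 or double_het replicate 8 and 4 without Isl1_het replicate 3. The cause of these moves was not tested. The other 5 comparisons gave 0 members under every alternative run.

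Hoxa3 passed in Nipbl_het against wild-type in 37 of 37 fits that left out 1 library, with log2 differences of 1.62 to 2.04, and over the other settings the values ran from 1.46 to 2.31. Of all 80 member values over the 8 genotype comparisons, 24 changed sign in at least 1 of the alternative fits, in 109 of 3784 fits. None of those 24 had an unadjusted p under 0.05 in the fit reported, and 0 were among the 10 of Nipbl_het against wild-type. Leaving out wild-type replicate 7 moved Hoxb1 and Hoxc5 in Nipbl_het from 1.91 and 1.03 to 2.60 and 1.70, leaving out wild-type replicate 8 moved Hoxa4 from 2.24 to 2.95, and leaving out Isl1_het replicate 3 moved the interaction value of Hoxc4 from -2.87 to -2.18, with no call among them. Of the values printed above, 2 changed sign. Hoxa3 in double_het against Isl1_het was -0.04 with set 2 left out, and Hoxb1 in Isl1_het against wild-type was 0.04 with set 2 left out. Over single libraries left out, Hoxb1 there ran from -1.44 without Isl1_het replicate 3 to 0.01 without wild-type replicate 7, and over the other settings from -1.9 to 0.04.

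Replicate numbers do not pair the libraries. Over 54 pairs of the same number, the correlation of deviations ran from -0.449 to 0.554, with 17 over 0.1, and 3 of 36 libraries correlated best with their own number. With the replicate block in place of the set number, 2 members passed in Nipbl_het against wild-type (Hoxc4 added), 0 in double_het against wild-type and 2 for the averaged effect of Nipbl loss (Hoxb2 added), beside 2.36%, 4.05% and 6.6% of all genes. The median counts of 3 for Hoxb1 and Hoxc5 and 6 for Hoxc4 limit what their fold differences can show.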
